A study of Mus musculus with 4 samples.

Results

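The genes described here are those of Toll-like receptor and LPS signalling, measured in the aorta of mice that lack apolipoprotein E. A list of 10 genes was taken (Tlr2, Tlr3, Tlr4, Tlr7, Cd14, Ly96, Myd88, Irak1, Nfkb1 and Nfkbia), and every probe set that the platform annotation assigns to exactly 1 of them was used. This gave 19 probe sets for 9 genes, of 22626 probe sets on the array. No probe set was assigned to Nfkb1, the gene of the p105 precursor of NF-kB p50, in the annotation used here, so it has no value below.

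All mice were female, 6 weeks old and apoE-/-, with C57BL/6 or C3H/HeJ as the background strain (the latter called C3H). Chow was given to all from weaning at 3 weeks, and from 4 weeks of age a Western diet replaced it in 1 group of each strain for 2 weeks. The labels describe chow-fed animals as hyperlipidemic and animals on Western diet as extremely hyperlipidemic. Each of the 4 groups (C57BL/6 chow, C57BL/6 Western, C3H chow, C3H Western) had 1 array of total aortic RNA, so no value has a replicate error. How many animals gave the RNA of an array is not stated.

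Toll-like receptors recognise microbial molecules and some molecules released by damaged tissue. TLR4 senses bacterial lipopolysaccharide (LPS) together with the surface protein CD14 and the bound co-receptor MD-2, which is encoded by Ly96. The adaptor MyD88 and the kinase IRAK1 carry the signal to NF-kB, which is held in the cytoplasm by its inhibitor I-kB alpha, the product of Nfkbia. NF-kB in turn switches on Nfkbia, which closes a negative feedback loop. In arteries these genes are expressed by macrophages and also by endothelial cells, smooth muscle cells and fibroblasts. C3H/HeJ mice are known to carry a loss-of-function missense allele of Tlr4 and to respond poorly to LPS. The allele changes the protein, and an RNA signal does not report on it. Where the probes lie relative to the changed base is not known here.

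Signals below are array intensities after quantile normalization, on a linear scale. A floor of 83.6, the 40th percentile of all signals, marks values too dim to be ordered, and a difference with 1 array at or under the floor is given as a bound ("at least"), computed against the floor itself. A difference was counted where it reached 2-fold. Of the 19 member probe sets, 9 were above the floor on all 4 arrays, among them the probe set that represents the gene (the brightest) for Cd14, Myd88, Irak1 and Nfkbia. A further 8 were above it on some arrays, and 2 (both of Tlr7) on none. For scale, probe sets of the same gene differed among themselves by a pooled SD of 0.62 (strain difference on chow), 0.52 (strain difference on Western diet), 0.51 (diet response in C57BL/6) and 0.58 (diet response in C3H) on the log2 scale. The C3H chow array stood apart in some quality measures, with an actin 3'/5' ratio of 2.28 against 1.63 to 1.83 on the others. For Gapdh the 3'/5' ratio was 1.19 there, inside the 1.03 to 1.28 of the other arrays. Its hybridization controls lay at 1.45 times the mean of the arrays, against 0.823 to 0.953. Each strain difference on chow and each diet response in C3H rests on this array. The aortic smooth muscle genes Acta2 and Myh11 and the endothelial gene Pecam1 were far above the floor on all arrays, with lowest signals of 23565, 5598 and 1398. RNA of neighbouring tissue was present too. Brown adipocyte markers (6 of 6 above the floor on each array) summed to 24288 in chow-fed and 26334 in Western-fed C57BL/6, and to 56049 in chow-fed and 32566 in Western-fed C3H. Of 8 heart muscle markers, all were above the floor on both C57BL/6 arrays (sums 17501 and 13192), 1 on C3H chow (347.4) and 2 on C3H Western (397.8).

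**Figure D1:**
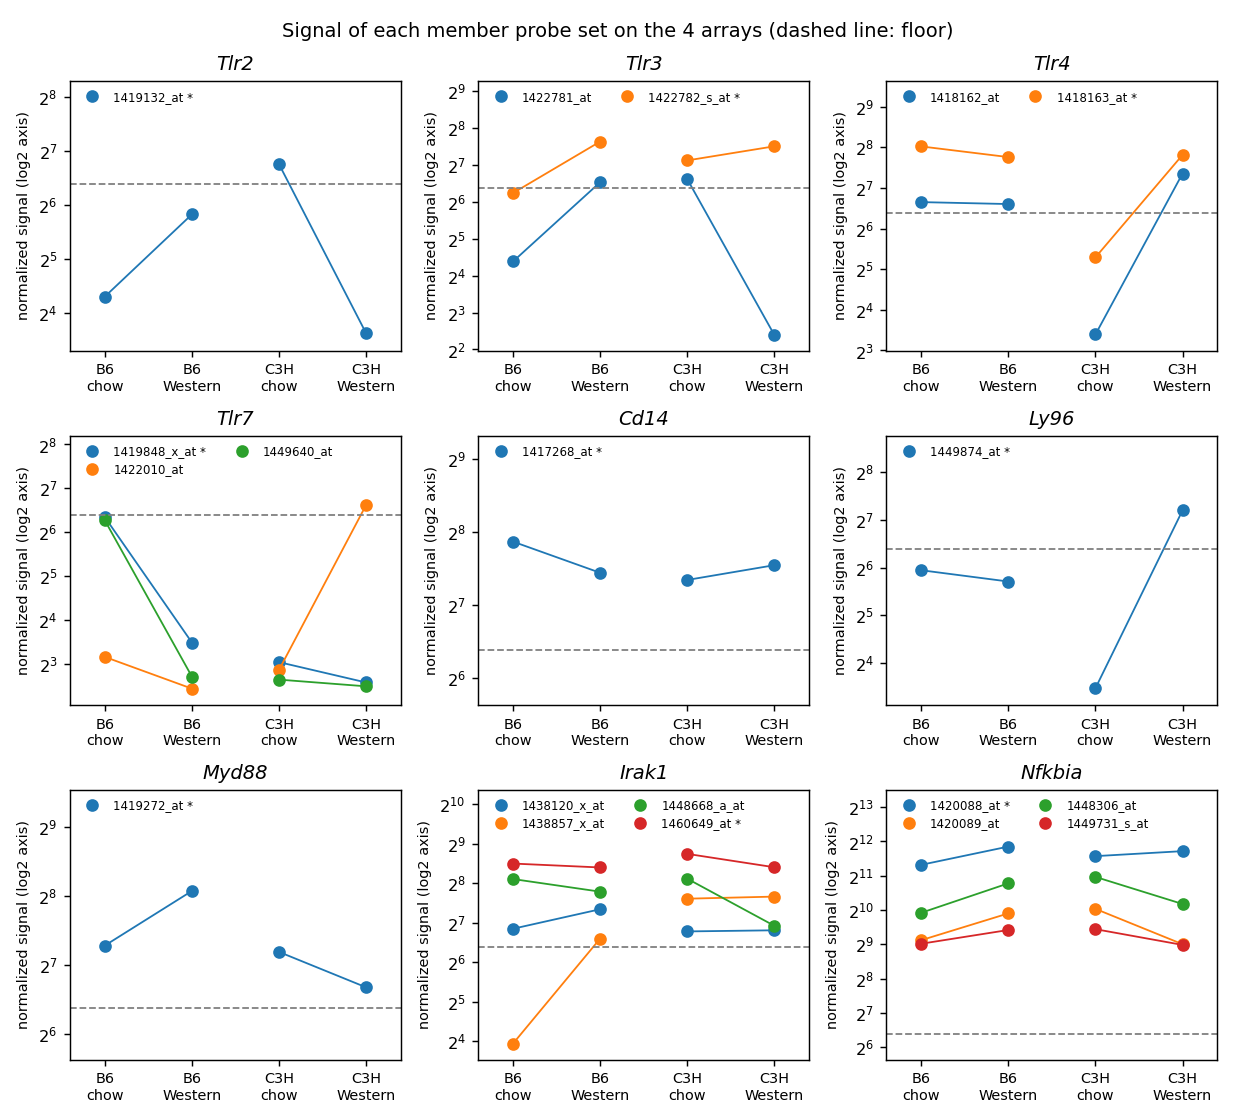
Normalized signal (log2 axis) of each member probe set on the 4 arrays, 1 panel per gene (B6 is C57BL/6), with lines joining chow and Western diet within a strain, the dashed line at the floor of 83.6 and an asterisk at the representative probe set. Both Tlr4 probe sets lie under the floor on C3H chow alone, and the 4 Nfkbia probe sets lie far above it on every array.

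Tlr4, the LPS receptor, was above the floor on 3 arrays and under it on the fourth. Its brighter probe set (1418163_at) gave 260.3 in chow-fed and 217 in Western-fed C57BL/6, and 39.2 in chow-fed and 225.2 in Western-fed C3H. Its other probe set (1418162_at) gave 100.7, 97.4, 10.5 and 163.8 in the same order. Both probe sets thus had their lowest signal on C3H chow, and that was the only array under the floor for either. On chow the brighter probe set was at least 3.11-fold lower in C3H than in C57BL/6, and the other at least 1.20-fold lower. With Western diet in C3H they were at least 2.69-fold and at least 1.96-fold higher than on chow. In C57BL/6 the responses to diet were small, 1.20-fold and 1.03-fold lower. On Western diet, where neither array is C3H chow, the brighter probe set differed between the strains by 1.04-fold (log2 0.05) and the other was 1.68-fold higher in C3H (log2 0.75). A lower Tlr4 signal in C3H was therefore seen on chow and not on Western diet. With the floor at the 60th percentile (159.8) the bounds of the brighter probe set shrank to 1.63-fold for strain on chow and 1.41-fold for diet in C3H, under the 2-fold limit. With it at the 25th percentile (32.6) all arrays were above the floor, and the differences were 6.64-fold and 5.74-fold.

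Other probe sets shared this pattern. Of 9705 probe sets above the floor on the other 3 arrays, 965 (9.94%) were at or under it on C3H chow, against 7.84% for C57BL/6 chow, 6.77% for C57BL/6 Western and 6.78% for C3H Western taken as the low array. At least 2-fold below each of the other arrays, as the brighter Tlr4 probe set was by bound, were 357 (3.68%). In bulk tissue, fewer cells of a type and less RNA per cell cannot be told apart. Fibroblast markers had their lowest level on C3H chow too, with a summed signal of 17037 against 68509 on C57BL/6 chow, 24652 on C57BL/6 Western and 32504 on C3H Western, and 8 of 9 above the floor on C3H chow. Smooth muscle markers summed to 45429 on C3H chow and to 73396 to 103220 elsewhere, with all 9 above the floor on every array. Macrophage markers summed to 4295 on C3H chow, 4568 on C57BL/6 chow, 6252 on C57BL/6 Western and 7799 on C3H Western. Of the 16 macrophage markers 12 were above the floor on C3H chow, and Adgre1 and Ptprc, like Tlr4, were under it on that array alone. The 12 macrophage markers measured on both chow arrays had a median strain difference of log2 -0.15. Of them, 2 were at least 1.5-fold higher and 2 at least 1.5-fold lower in C3H, beside 1372 and 1350 of all 6605 genes measured there. The part of these cell types, of the fat and heart RNA and of the array's quality in the Tlr4 values was not tested.

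**Figure D2:**
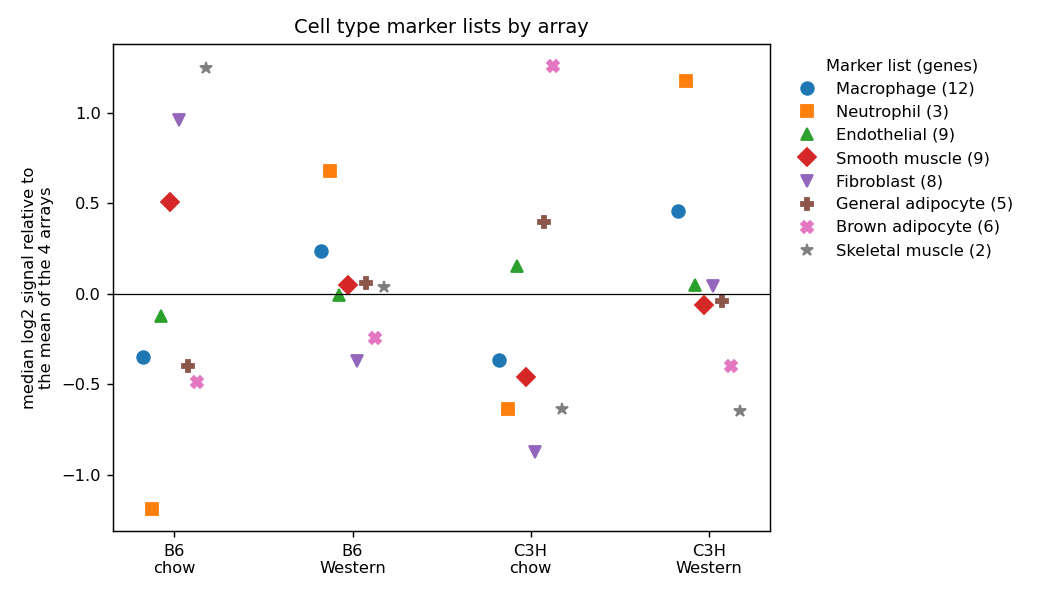
Median log2 signal of cell type marker genes on each array (B6 is C57BL/6) relative to the mean of the 4 arrays, over the markers above the floor on all arrays (their number in the legend). Lists with fewer than 2 such markers (B cells, T cells, heart muscle, mast cells) are not drawn. Fibroblast (-0.87) and smooth muscle (-0.46) markers are lowest on C3H chow and brown adipocyte markers (1.26) highest there.

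Ly96, whose product MD-2 binds LPS within the TLR4 complex, was above the floor on 1 array. Its signal was 61.5 in chow-fed and 52.3 in Western-fed C57BL/6, and 11.2 in chow-fed and 146.1 in Western-fed C3H. C3H Western was the high array, and the other 3 have no order. It was at least 1.75-fold higher on C3H Western than on either C3H chow or C57BL/6 Western. This bound is under the 2-fold limit and depends on the floor. With the floor at the 25th percentile (32.6) it was 2.80-fold higher than on C57BL/6 Western and at least 4.48-fold higher than on C3H chow. With it at the 60th percentile (159.8) every array was under the floor.

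Cd14, which hands LPS to the TLR4 complex and is a marker of monocytes and macrophages, was above the floor throughout. It gave 233.8 in chow-fed and 174 in Western-fed C57BL/6, and 162.6 in chow-fed and 187 in Western-fed C3H. The highest array was 1.44-fold above the lowest, so all arrays lay close together. Its differences were log2 -0.52 for strain on chow, 0.10 for strain on Western diet, -0.43 for diet in C57BL/6 and 0.20 for diet in C3H, each smaller than the SD between probe sets of a gene given above. Macrophage markers, by contrast, had median diet responses of log2 0.46 in C57BL/6 (14 measured) and 0.75 in C3H (12 measured). The difference between Cd14 and these markers was not tested.

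Tlr2, the receptor for bacterial lipoproteins, gave 19.8 in chow-fed and 56.8 in Western-fed C57BL/6, and 108 in chow-fed and 12.4 in Western-fed C3H. Only C3H chow was above the floor, at 1.29 times its level. Tlr7, an endosomal receptor for single-stranded RNA, has 3 probe sets, and of their 12 signals the single one above the floor was 98.1 by 1422010_at on C3H Western. The others ranged from 5.38 to 81. For Tlr2 and Tlr7 the arrays therefore give only bounds, from signals near the floor. None of these bounds reached 2-fold, and the size of any difference is not known.

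Tlr3, the endosomal receptor for double-stranded RNA, was lowest on C57BL/6 chow by its representative probe set. This set (1422782_s_at) gave 75.5 in chow-fed and 198.5 in Western-fed C57BL/6, and 139.3 in chow-fed and 181.6 in Western-fed C3H. With Western diet it was at least 2.37-fold higher in C57BL/6 and 1.30-fold higher in C3H. On chow it was at least 1.67-fold higher in C3H, and on Western diet the strains differed by 1.09-fold. The other probe set (1422781_at) gave 20.9, 92.5, 98.2 and 5.26 in that order. It too was under the floor on chow and above it on Western diet in C57BL/6, but in C3H it stood at 98.2 on chow and under the floor on Western diet, opposite to the first set. The floor decides the C57BL/6 bound, which was 1.24-fold with the floor at the 60th percentile.

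Myd88, the adaptor shared by most Toll-like receptors and the IL-1 receptor, and Nfkbia, the feedback inhibitor, were the members whose signals were higher on Western diet than on chow in C57BL/6 and, for most probe sets, lower in C3H. On chow they were unlike, with Nfkbia higher in C3H by every set and Myd88 close between the strains. Because of the shared diet directions, the 250 bases before their RefSeq starts are shown. They are from assembly GRCm38.p6, minus strand for both, and read 5′ to 3′ along the gene. They lie at chr12:55492648-55492897 for Nfkbia and chr9:119340019-119340268 for Myd88. Capitals mark a match to the NF-kB consensus in Nfkbia and to the interferon response element core GAAANNGAAA in Myd88.
Nfkbia: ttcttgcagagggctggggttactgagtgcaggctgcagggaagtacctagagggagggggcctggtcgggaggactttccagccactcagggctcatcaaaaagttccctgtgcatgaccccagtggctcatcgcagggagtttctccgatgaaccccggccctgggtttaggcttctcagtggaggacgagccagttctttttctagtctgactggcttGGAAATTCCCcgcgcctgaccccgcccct
Myd88: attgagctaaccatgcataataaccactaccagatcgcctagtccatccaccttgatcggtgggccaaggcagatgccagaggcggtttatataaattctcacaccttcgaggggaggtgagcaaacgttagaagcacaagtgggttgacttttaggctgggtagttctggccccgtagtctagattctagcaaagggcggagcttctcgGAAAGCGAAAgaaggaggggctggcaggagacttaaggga

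The Nfkbia match lies 29 to 20 bases before the start, on the strand opposite to the gene. The Myd88 match lies 40 to 31 bases before it, and the window held no match to the NF-kB consensus. Over both strands, 7.28% of 32536 such RefSeq windows of the same length held the NF-kB consensus and 2.98% the interferon element core. Promoter entries matched 5 of the 10 list genes (Tlr2, Tlr3, Myd88, Irak1 with 2 starts, and Nfkbia), and those of 4 of the 5 genes, all but Myd88, held an NF-kB match. The matches in Tlr2 overlap each other, and the Irak1 windows overlap and hold the same site. A match describes the letters and does not show binding.

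Myd88 gave 155.9 in chow-fed and 269.7 in Western-fed C57BL/6, and 146.2 in chow-fed and 102.5 in Western-fed C3H. The chow arrays were close together, C57BL/6 Western was the highest array and C3H Western the lowest. Western diet gave a signal 1.73-fold higher in C57BL/6 and 1.43-fold lower in C3H. On Western diet Myd88 was therefore 2.63-fold lower in C3H (log2 -1.40), against a 1.07-fold difference on chow that changed sign with the deposited values. The Western arrays do not include the array that stood apart, but they differ in heart muscle RNA. Heart muscle markers summed to 13192 on C57BL/6 Western and to 397.8 on C3H Western. The part of that tissue in the Myd88 values was not tested. Of all probe sets measured on both Western arrays, 8.41% differed at least 2-fold and 4.24% in this direction. The genes closest to Myd88 in profile over the 4 arrays were Gsto1, Foxred1 and Map3k6, with largest departures of 0.12, 0.13 and 0.13 (log2), and 28 of 5645 genes lay within 0.25.

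Nfkbia, encoding I-kB alpha, had 4 probe sets, all above the floor on every array. The brightest (1420088_at) gave 2555 in chow-fed and 3695 in Western-fed C57BL/6, and 3045 in chow-fed and 3368 in Western-fed C3H. The probe set with a RefSeq transcript in the annotation (1448306_at) gave 969, 1756, 2000.0 and 1157 in that order. The other sets gave 556.5, 956.5, 1047 and 512.8 (1420089_at) and 517.6, 683.6, 694.9 and 505.4 (1449731_s_at). In C57BL/6 all 4 sets were higher on Western diet. In C3H 3 of the 4 were lower on Western diet, and the brightest was not.

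The Nfkbia diet responses were 1.32-fold to 1.81-fold higher in C57BL/6 (log2 0.40 to 0.86). In C3H the same 4 sets ranged from 2.04-fold lower to 1.11-fold higher (log2 -1.03 to 0.15). The C3H response minus the C57BL/6 one was log2 -0.39 (1420088_at), -1.65 (1448306_at), -1.81 (1420089_at) and -0.86 (1449731_s_at), below 0 for every set. Opposite responses of at least 1.5-fold in the strains occurred in 2 of the 9 member probe sets that cleared the floor throughout, both of Nfkbia (1420089_at and 1448306_at), and in 6.24% of all 8740 such probe sets. In this direction, higher in C57BL/6 and lower in C3H, 2.87% of them did. Between the strains, Nfkbia was higher in C3H on chow by all 4 sets (log2 0.25 to 1.05) and lower in C3H on Western diet by all 4 (log2 -0.13 to -0.90). The sets share the gene and the arrays, so their agreement is no replication over animals. C3H chow, the array on which brown adipocyte markers had their highest sum, was also the highest for 3 of the 4 Nfkbia sets, and the part of that tissue in these values was not tested. For 1448306_at on chow the 2-fold limit was reached with quantile normalization (log2 1.05) and not with the deposited values (0.94), equal array medians (0.82) or cyclic loess (0.95). For 1420089_at the 2-fold limit of the C3H diet response was reached with quantile normalization (log2 -1.03) and cyclic loess (-1.07), and not with the deposited values (-0.98) or equal array medians (-0.83).

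**Figure D3:**
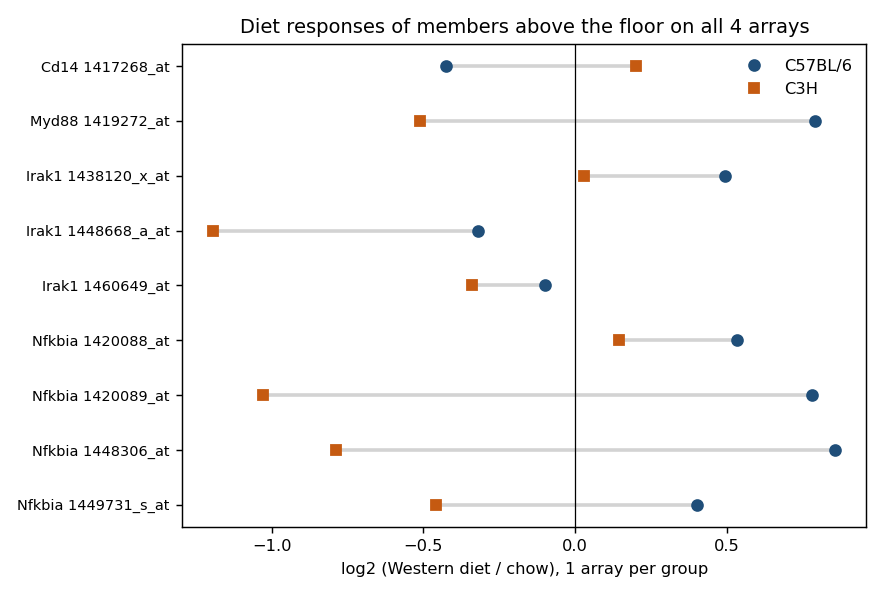
Log2 ratio of Western diet to chow for the 9 member probe sets that cleared the floor throughout, in C57BL/6 (circles) and C3H (squares), 1 array per group and no error. For Myd88 and 3 of the 4 Nfkbia probe sets the C57BL/6 ratio is above 0 and the C3H ratio below 0.

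Irak1, the kinase recruited by MyD88, had 4 probe sets whose patterns differed. The brightest (1460649_at) was nearly level, at 360.9 in chow-fed and 337 in Western-fed C57BL/6, and 427.9 in chow-fed and 338.3 in Western-fed C3H. Another (1448668_a_at) gave 275, 220.3, 276.7 and 121.1, and stood apart on C3H Western, where it was 2.29-fold lower than on C3H chow and 1.82-fold lower than in C57BL/6. The set 1438120_x_at gave 114.9, 161.8, 109.6 and 111.8, highest on C57BL/6 Western. The set 1438857_x_at gave 15.3, 96.7, 194.7 and 202, higher on both C3H arrays, with a difference of at least 2.33-fold on chow and of 2.09-fold on Western diet. Its C57BL/6 signals lay under and little above the floor, and with cyclic loess both were under it. The strain difference on Western diet thus ran from log2 -0.86 to 1.06 over the 4 sets of this gene, and no direction for Irak1 holds for all of them.

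Counted over the members, few differences reached 2-fold. For strain on chow, 1 of 9 measured probe sets did (Nfkbia, higher in C3H), where 17.1% of all measured probe sets did in either direction and 8.20% in this one. By bound, 2 of 6 with 1 array under the floor did, Irak1 1438857_x_at higher and Tlr4 1418163_at lower in C3H, beside 13.9% of all such probe sets in each direction. For strain on Western diet, 2 of 13 reached it (Irak1 1438857_x_at higher and Myd88 lower), where 8.41% of all did, 4.17% higher and 4.24% lower. By bound 0 of 3 did, beside 9.95% higher and 9.63% lower. For diet in C57BL/6, 0 of 11 did, where 7.76% of all did. By bound 1 of 3 did (Tlr3, higher), beside 10.0% of all such probe sets in this direction alone. For diet in C3H, 2 of 11 did (Irak1 1448668_a_at and Nfkbia 1420089_at, both lower), where 12.3% of all did in either direction and 5.95% were lower. By bound 1 of 6 did (Tlr4, higher), beside 12.5% of all such probe sets in this direction alone. With 0 to 2 probe sets in each count, the shares of members are too coarse to be set apart from those of the whole array. Over the representative probe sets the medians were log2 0.08 (4 measured), -0.06 (6), -0.10 (5) and 0.15 (5) in these comparisons, against 0.03, 0.00, 0.00 and -0.01 over all genes.

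**Figure D4:**
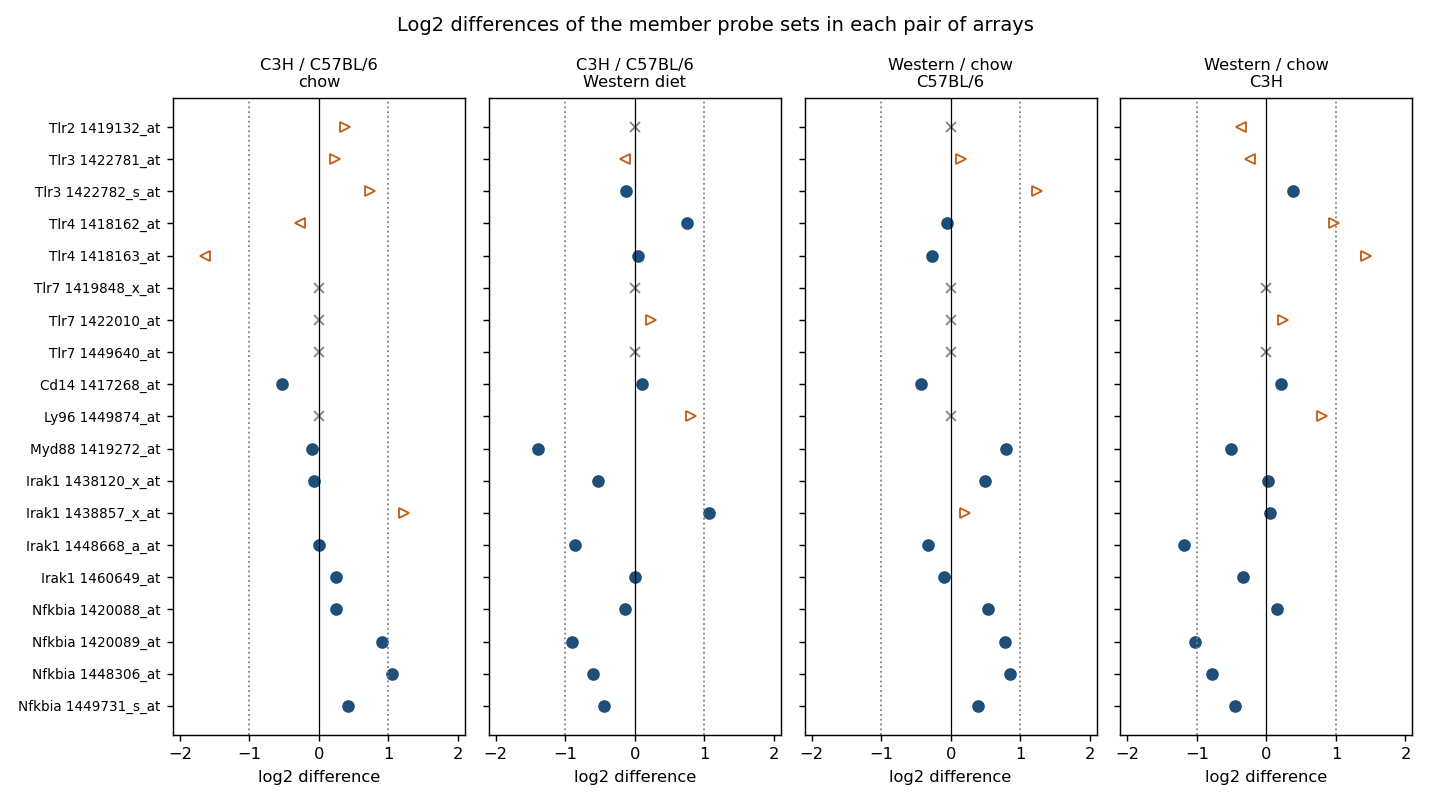
Log2 difference of each member probe set in the 4 pairs of arrays. Filled circles are measured on both arrays, open triangles are bounds that point away from the dim array, grey crosses at 0 mark pairs with both arrays under the floor, and dotted lines mark 2-fold. Few circles pass the dotted lines, and the probe sets of Irak1 lie on both sides of 0.

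An additive fit in limma with terms for strain and diet, over 14915 probe sets, called none of the 14 member probe sets it included, at an adjusted p of 0.05 for either term. For strain, 57 of all probe sets (0.382%) passed, and for diet 0 (0%). No member had an unadjusted p under 0.05 for strain or diet (873 and 367 of all probe sets did, 5.85% and 2.46%). The lowest adjusted p among members in limma was 0.847 for strain (shared by Irak1 1438857_x_at at log2 2.37 and Tlr4 1418163_at at log2 -1.34) and 0.9996 for diet. Dim signals were kept in it at their measured values. The residual of this fit is the difference between the strains' diet responses itself, with 1 residual degree of freedom. That difference therefore has no test here.

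Of the wider pathway, 89 further genes were listed in 4 groups, and 75 had a probe set. Of these 75 genes, 27 were above the floor on all arrays and 10 on none. Taking the brightest probe set of each gene, 3 of 34 measured pathway genes differed at least 2-fold between the strains on chow, beside 17.1% of all genes measured there, and by bound 6 of 23 did, beside 28.1%. On Western diet 6 of 40 did (8.27% of all genes), and by bound 2 of 20 (19.8%). For diet in C57BL/6 4 of 37 did (7.67%), and by bound 5 of 23 (20.6%). For diet in C3H 4 of 37 did (12.3%), and by bound 5 of 20 (25.8%). The direction of the C3H diet calls depends on the scaling, with 3 higher and 1 lower here, 2 and 4 with the deposited values, 1 and 3 with cyclic loess, and 4 and 0 with equal array medians. Among 14 other Toll-like receptors and their partners, Tlr1, Tlr9, the integrin Itgam and the chaperone gene Cnpy3 were under the floor throughout. Itgb2, the leukocyte integrin beta 2 chain, was 2.00-fold higher on the Western than on the chow array of C3H (241.2 against 120.3), the only difference of this group to reach 2-fold with both arrays measured. It was under 2-fold with the deposited values (log2 0.87) and cyclic loess (0.92). In C57BL/6 it stood at 54.6 on chow, under the floor, and at 235.8 on Western diet, at least 2.82-fold higher. Macrophage markers, whose sums are given above, were likewise higher on the Western arrays. Neutrophil markers were too, with sums of 655.5 in chow-fed and 1975 in Western-fed C57BL/6, and of 837.6 and 2403 in C3H. Of 8 neutrophil markers, 3 were above the floor on all arrays. The part of either cell type in the Itgb2 values was not tested. Ly86, encoding MD-1, the relative of MD-2 that partners CD180, gave 242.4 in chow-fed and 145.5 in Western-fed C57BL/6, and 13.8 in chow-fed and 192.3 in Western-fed C3H. On chow it was at least 2.90-fold lower in C3H, and Unc93b1, a chaperone of endosomal Toll-like receptors, at least 2.80-fold higher. Cd180, at 205.1 on C57BL/6 Western, was at least 2.45-fold lower on C3H Western. Ly86 was also at least 2.30-fold higher with diet in C3H. Like Tlr4, Ly86 was under the floor on C3H chow alone, as were Ikbkg, Ptgs2, Socs3 and Tnfaip3. These were 5 of the 32 pathway genes above the floor on the other 3 arrays, beside 8.24% of all genes. With C57BL/6 chow as the low array it was also 5 of 32 (6.59% of all genes), with C57BL/6 Western 4 of 31 (5.90%) and with C3H Western 3 of 30 (5.59%).

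Among 19 adaptor, kinase and interferon regulatory factor genes on the array, 5 strain differences reached 2-fold with both arrays measured. They were 1 of 13 on chow and 4 of 14 on Western diet, beside 17.1% and 8.27% of all genes measured. By bound, Ikbkg was at least 2.22-fold lower and Irf5, an interferon regulatory factor, at least 2.37-fold higher in C3H on chow. Traf6, the ubiquitin ligase downstream of IRAK1, was 2.06-fold lower in C3H on chow (103.1 against 212.7), and under 2-fold with the deposited values (log2 -0.93) and cyclic loess (-0.96). On Western diet Peli1, a ubiquitin ligase that acts on IRAK proteins, was 2.70-fold lower in C3H (195.9 against 529) and Ikbkg, the regulatory subunit of the I-kB kinase, 2.03-fold lower (173.9 against 352.3). Irf7, a driver of type I interferon genes, was 2.64-fold higher in C3H on Western diet (361.2 against 136.9), and Tab3, an adaptor of the kinase TAK1, 2.17-fold higher (199.6 against 92.0). For diet, Tab3 was 2.34-fold higher in C3H and Ikbkg at least 2.08-fold higher by bound. With cyclic loess, Tab3 was not above the floor on both arrays of either comparison. In C57BL/6 no gene measured on both arrays reached 2-fold, and Irf5 was at least 2.16-fold higher by bound. The group's median strain difference was log2 -0.39 on chow (13 measured) and -0.07 on Western diet (14 measured).

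Of 12 further NF-kB and I-kB family genes, Rela, the p65 subunit, ranged from 608 to 871 over the 4 arrays. Nkiras2, encoding a small GTPase that binds I-kB proteins, was lower in C3H on both diets, with signals of 442.2 and 656.4 in C57BL/6 and of 144.6 and 211.8 in C3H on chow and Western diet. The folds were 3.06 (chow) and 3.10 (Western diet), from pairs that share no array. In both pairs, however, the C57BL/6 array carried more heart muscle RNA. The heart marker sum stood at 17501 against 347.4 for the chow pair, and at 13192 against 397.8 for the Western pair. The part of that tissue in the Nkiras2 values was not tested. Nkiras1, the relative of Nkiras2, was 2.58-fold lower with Western diet in C57BL/6, from 223.3 to 86.7, and on Western diet 2.46-fold higher in C3H. Tnip1, which encodes a partner of the NF-kB inhibitor A20, was 2.24-fold higher with Western diet in C57BL/6 (361.1 against 161.3), and Nfkbib, encoding I-kB beta, 2.33-fold lower (153.5 against 356.9). With the deposited values, Nkiras1 on C57BL/6 Western was under the floor. By bound, Nfkb2, the gene of the p100 precursor of NF-kB p52, was at least 2.35-fold higher on C3H chow than on C57BL/6 chow and than on C3H Western. Nfkbiz, encoding a nuclear I-kB protein, was at least 2.28-fold lower with Western diet in C57BL/6.

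Of 30 genes known to be induced by LPS or NF-kB, 10 to 13 were measured in each pair of arrays, and Il6, Nos2, Sele, Cxcl2, Cxcl10 and Traf1 were under the floor on all 4. Tnf gave 136.8 in chow-fed and 16.4 in Western-fed C57BL/6, and 197.4 in chow-fed and 116.6 in Western-fed C3H, and Il1b gave 155.4, 111, 184.9 and 93.4. Both cytokine genes were lower on the Western array than on the chow array of each strain. No difference measured on both arrays reached 2-fold. The Tnf difference in C57BL/6 is a bound, so whether it reached 2-fold is not known. Tnf was at least 1.64-fold lower in C57BL/6 and 1.69-fold lower in C3H, and Il1b 1.40-fold and 1.98-fold lower. Of the group's 10 genes measured in C57BL/6, 3 were at least 1.5-fold higher and 1 lower with diet, beside 932 and 971 of all 6776 genes. In C3H 3 of 12 were higher and 5 lower by that limit, beside 1146 and 1142 of all 6690 genes. Ier3, an early response gene, was 2.00-fold lower on the Western than on the chow array of C3H (193.7 against 388), and Il1rn, the IL-1 receptor antagonist, was 2.02-fold higher in C3H on chow (172.3 against 85.3). With equal array medians both were under 2-fold (log2 -0.86 and 0.98), and with cyclic loess Il1rn was not above the floor on both arrays. Vcam1, an endothelial adhesion molecule, was the 1 gene of this group at least 2-fold higher with diet in both strains, 2.32-fold in C57BL/6 and 4.57-fold in C3H. The group's median diet response was log2 0.26 in C57BL/6 (10 measured) and -0.20 in C3H (12 measured). Of these measured genes 1 and 2 respectively differed at least 2-fold, beside 7.67% and 12.3% of all genes measured. By bound, Lcn2 was at least 3.10-fold and Tnfaip2 at least 2.39-fold higher with diet in C57BL/6, and Ptgs2 at least 2.24-fold and Saa3 at least 2.02-fold higher in C3H. Between the strains, Il10 was at least 2.56-fold higher in C3H on chow and Tnfaip2 at least 2.39-fold lower in C3H on Western diet.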

How the data were processed

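Labels' protocols describe Trizol extraction and biotin-labelled cRNA made from 8 ug of total RNA for a 1-colour Affymetrix array. The authors deposited linear intensities for 22690 probe sets, 64 of them controls that were left out. The arrays share a 2% trimmed mean of 250.1, so they had been scaled. The summarisation software and detection calls are not stated in the sources. Medians still differed by a ratio of 1.16, and log2 values were therefore quantile normalized in limma 3.58.1 (R 4.3.3).

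Of 22626 probe sets, 20380 name 1 gene in the platform annotation, 691 several, and 1555 are unnamed here. The members and gene lists were chosen with earlier results of these data known. All member probe sets were named, and of each pathway list up to 3 genes per direction and comparison with the largest 2-fold difference of the brightest probe set. Genes with a 2-fold bound were named too. Other genes (Tlr1, Tlr9, Itgam, Cnpy3, Rela, Tnf, Il1b and the genes listed under the floor) were picked, like those bounds, after values were seen.

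With 1 array a group, pairs were compared by fold with no test. The limma fit (strain plus diet, eBayes with mean trend, Benjamini-Hochberg) used each probe set with 2 or more arrays above the floor. Its p-values rest mostly on a shared prior of 17.3 degrees of freedom, drawn from the residuals of all fitted probe sets. Those residuals hold the difference between the strains' diet responses, with any technical spread between arrays, and are no replicate spread. For 2 arrays against 2, the smallest p of an exact permutation test is 0.333. Precision is limited by having 4 arrays. Python 3.11.15 with pandas 2.3.3, numpy 2.4.6 and matplotlib 3.10.9 did the remaining steps. Promoter windows are from RefSeq.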

Additional observations from a re-analysis of the deposited data

Results flagged for a closer look

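Of the 4 Nfkbia probe sets, 2 were set apart because their responses to Western diet went opposite ways in the strains, by at least 1.5-fold in each. The C3H response minus the C57BL/6 response was log2 -1.81 by 1420089_at and -1.65 by 1448306_at. This difference was not tested, since each response rests on 1 array per group, and the C3H responses use the C3H chow array that stood apart. Of the other sets, 1449731_s_at was 1.32-fold higher in C57BL/6 and 1.37-fold lower in C3H with Western diet, and the brightest, 1420088_at, was higher in both strains (log2 0.53 and 0.15).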

How the results depend on the processing

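No paired analysis was possible because each group has 1 array, and for the same reason no replicate could be left out. The cause of each shift below was not tested beyond what a setting itself changes. Counts of member probe sets at 2-fold started from 1 (strain, chow), 2 (strain, Western diet), 0 (diet, C57BL/6) and 2 (diet, C3H). For strain on chow the count was 0 with cyclic loess, 1 probe set per gene, the deposited values, equal array medians or a 3-fold limit, 2 with the floor at the 25th percentile or a 1.5-fold limit, and 9 with no filter. For strain on Western diet it was 1 with cyclic loess or 1 probe set per gene, 0 with the floor at the 60th percentile or a 3-fold limit, and 6 with no filter or a 1.5-fold limit. For diet in C57BL/6 it was 1 with equal medians or the floor at the 25th percentile, 3 at 1.5-fold and 6 with no filter. For diet in C3H it was 1 with the deposited values, equal medians or the floor at the 60th percentile, and 0 with 1 probe set per gene or at 3-fold. It was 3 with the floor at the 25th percentile or at 1.5-fold, and 8 with no filter. Pathway list counts were 3, 6, 4 and 4 in the same order of comparisons. They became 11, 9, 13 and 7 at a 25th percentile floor, and 0, 3, 2 and 1 at a 60th percentile floor. No filter gave 34, 24, 32 and 24. Cyclic loess gave 1, 5, 4 and 4, the deposited values 2, 5, 3 and 6, and equal medians 2, 6, 5 and 4. With no filter, folds of dim signals enter the counts. The limma fits called 0 members for strain and for diet under each alternative run, with the lowest adjusted p between 0.779 and 0.911 for strain. Of 44 measured member differences, 4 changed sign with the deposited values, 2 with equal medians and 2 with cyclic loess, none larger than log2 0.09. Equal medians moved the median diet response of all probe sets in C3H to log2 0.11, with 865 higher and 455 lower at 2-fold against 684 and 635.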
